A study of Anopheles merus and Anopheles coluzzii with 36 samples.

Results

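The GNBP family of beta-glucan binding proteins was examined in newly hatched larvae of a pair of closely related malaria mosquitoes moved from fresh water into salt water. The family was represented by 5 listed genes, AGAP002796, AGAP002798, AGAP002799, AGAP004455 and AGAP012409, and all 5 were present among the 10905 genes of the deposited expression table. They were taken by identifier from the whole table. The family was chosen with earlier results of the same libraries known, and AGAP002798 counts as selected on its low CPM at 50% of seawater salinity against 0% in both species. For that gene, values at 0 or 50% set against another salinity are therefore described without a test of their own. The table pairs identifiers with no gene names and no annotation of them was at hand, so no role is given to a single member.

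GNBPs, first called Gram-negative binding proteins, combine a beta-glucan binding region with a domain related to bacterial and invertebrate glucanases. In insects many of them are secreted by fat body and blood cells into the hemolymph, where they bind sugars of fungal and bacterial cell walls. In Drosophila, GNBP3 senses fungal glucan and GNBP1 acts with a peptidoglycan recognition protein, and both feed protease cascades that activate the Toll receptor. In moths, related beta-glucan recognition proteins start the cascade that activates prophenoloxidase, the enzyme of melanin formation. In larvae of the mosquito Aedes aegypti, glucanases related to this family take part in digesting the walls of yeast in the gut.

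Anopheles merus is euryhaline, which means that its larvae live in fresh and in salt water, and An. coluzzii is stenohaline and breeds in fresh water. Larvae of each species were raised in fresh water, and from 18 h after hatching they were kept for 6 h at 0, 10, 20, 30, 40 or 50% of the salinity of seawater. Each of the 36 libraries was poly(A) RNA from a pool of 35 to 50 whole larvae, with 3 pools (replicates A, B and C, with D in place of 1 letter in some An. coluzzii groups) in each of the 12 groups. Values are CPM (counts scaled to library size) with the authors' TMM factors, which take the bulk of the genes to be stable.

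Libraries held 9174563 to 24092192 reads for An. merus and 15369828 to 24835904 reads for An. coluzzii. Differences were tested with limma on log2(CPM + 0.5) over all 10905 genes and called at a Benjamini-Hochberg adjusted p under 0.05. Separate cultures are not stated for the pools, and each p-value measures the spread between pools only. RNA came from whole larvae, in which fewer cells of a type and less RNA per cell cannot be told apart. With library totals in place of TMM, the median log2 difference from 0% over all genes shifted by -0.13 at 50% in An. merus. In An. coluzzii it shifted by -0.16 at 30%, -0.28 at 40% and -0.28 at 50%, and the values given here are relative to the bulk of the genes.

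The members did not move as a block. AGAP002796 and AGAP002798 were lower at high salinity in each species, AGAP012409 was higher in each, and AGAP002799 and AGAP004455 took different courses in An. merus and An. coluzzii. The comparison that uses neither the 0% nor the 50% libraries, a slope over 10 to 40%, was called for 5 of 5 members in An. merus, where 20.2% of all genes were called. Of those members 3 were lower and 2 higher with salinity, against 11.2% of all genes lower and 8.99% higher. In An. coluzzii it was called for 3 of 5 members (2 lower, 1 higher), where 66.1% of all genes were called (34.8% lower, 31.3% higher), so that share of members is near the background. The median slope of the members, in log2 units per 10% of seawater, was -0.23 in An. merus, against 0.00 over all genes, and -0.05 in An. coluzzii, against -0.01 over all genes.

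**Figure D1:**
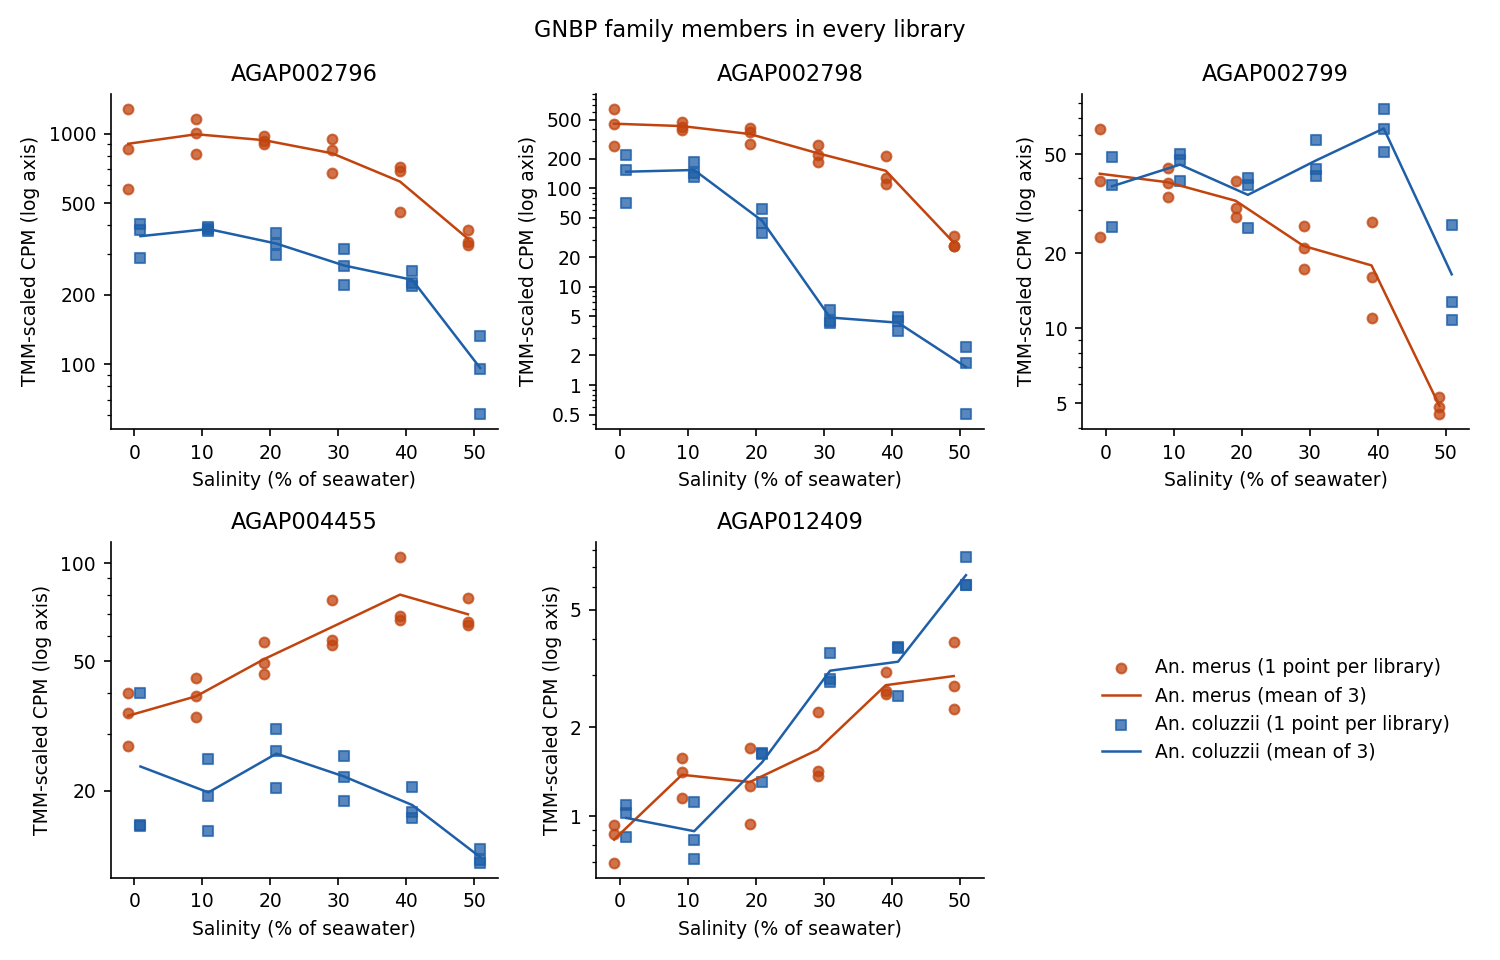
TMM-scaled CPM (log axis) of each GNBP member against salinity (% of seawater), with 1 point per library and a line through the mean of 3 libraries, for An. merus (circles) and An. coluzzii (squares). The AGAP002798 libraries of An. coluzzii lie at 71.0 to 218 CPM at 0% and at 4.30 to 5.84 CPM at 30%, while those of An. merus at 30% lie at 186 to 276 CPM.

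On the log scale AGAP002798 was the member with the widest range of levels. The ends of that range in each species are libraries at 0 and 50%, on which it was selected, so its width is a description only. In An. merus it measured 644, 447 and 271 CPM at 0%, 425, 475 and 388 CPM at 10%, 413, 281 and 376 CPM at 20%, 186, 276 and 219 CPM at 30%, 214, 111 and 127 CPM at 40%, and 25.8, 32.5 and 26.0 CPM at 50% (replicates A, B and C). The 3 libraries at 50% lay below every other An. merus library, and those at 30 and 40% overlapped each other. Its slope over 10 to 40% was -0.53 ± 0.11 log2 units per 10% (SE; adjusted p = 0.00068, limma).

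In An. coluzzii the same gene was at 218, 154 and 71.0 CPM at 0%, 129, 187 and 145 CPM at 10%, 44.5, 34.8 and 61.1 CPM at 20%, 4.45, 4.30 and 5.84 CPM at 30%, 4.45, 4.93 and 3.56 CPM at 40%, and 2.41, 0.507 and 1.66 CPM at 50%. Most of its range was covered between 10 and 30%, where successive groups did not overlap, and the groups at 30 and 40% overlapped. The 50% values rest on 37, 8 and 23 reads. The slope over 10 to 40% was -1.81 ± 0.11 log2 units per 10% (SE; adjusted p = 4.2e-14, limma), and its difference from the slope in An. merus, An. merus minus An. coluzzii, was 1.28 ± 0.15 (SE; adjusted p = 1.8e-07, limma; 46.1% of all genes were called for that difference, and 4 of the 5 members).

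Differences of AGAP002798 from 0% are given without a p-value, because the 0% libraries were among those it was selected on. Only its slopes, steps and species differences within 10 to 40% are free of the libraries of its selection. In An. coluzzii the log2 difference from 0% was -1.54 ± 0.34 at 20%, -4.66 ± 0.34 at 30% and -4.81 ± 0.34 at 40% (SE). In An. merus it was -0.93 ± 0.34 at 30% and -1.56 ± 0.34 at 40% (SE). The 0% pools of An. merus lay far apart, and with replicate A left out there the value at 30% was -0.63, while with replicate C left out it was -1.26. At 50% against 0%, given as a description, mean CPM was 28.1 ± 3.79 at 50% against 454 ± 186 at 0% in An. merus, and 1.53 ± 0.960 at 50% against 148 ± 73.6 at 0% in An. coluzzii (SD over 3 libraries).

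Steps between neighbouring salinities placed the fall in An. coluzzii. From 10 to 20% the step was -1.72 ± 0.34 on the log2 scale (SE; adjusted p = 0.011, limma; 1 of 5 members and 1.05% of all genes called), and that call was lost without replicate A or B at 20% or replicate B at 10% (limma adjusted p = 0.078, 0.054 and 0.105). From 20 to 30% the step was -3.11 ± 0.34 (SE; adjusted p = 2.4e-07, limma; 2 of 5 members and 22.1% of all genes called). From 30 to 40% it was -0.16 ± 0.34 (SE; adjusted p = 0.74, limma), and 0 of 5 members were called with limma, edgeR or DESeq2, or at an unadjusted p under 0.05 (40.3% of all genes with limma). In An. merus its 3 steps from 10 to 40% were -0.28, -0.65 and -0.63 ± 0.34 (SE), and none passed the threshold. For those 3 steps limma, edgeR and DESeq2 called 0 of 5 members in An. merus, limma called 0, 0.00917 and 1.81% of all genes, and 0, 0 and 1 member had an unadjusted p under 0.05.

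AGAP002799 was lower at 50% than at 0% in each species and had a different slope below that. In An. merus it measured 62.9, 39.2 and 23.2 CPM at 0%, 38.2, 44.1 and 33.6 CPM at 10%, 39.2, 27.9 and 30.5 CPM at 20%, 21.1, 25.9 and 17.3 CPM at 30%, 26.6, 16.1 and 11.0 CPM at 40%, and 4.83, 4.53 and 5.30 CPM at 50%. All 3 libraries at 50% were below every other An. merus library. In An. coluzzii it was at 48.5, 37.6 and 25.4 CPM at 0%, 39.1, 50.0 and 47.2 CPM at 10%, 37.6, 25.3 and 40.2 CPM at 20%, 43.8, 40.8 and 56.9 CPM at 30%, 76.1, 51.2 and 63.0 CPM at 40% (replicates B, C and D), and 25.9, 10.8 and 12.7 CPM at 50%. There the 40% group was on top and the 50% group at the bottom, with 1 library at 50% (A) overlapping those at 0 and 20%.

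In An. merus AGAP002799 fell over 10 to 40%, with a slope of -0.41 ± 0.10 per 10% (SE; adjusted p = 0.0032, limma). In An. coluzzii the slope was 0.19 ± 0.10 (SE; adjusted p = 0.095, limma), and the difference between the slopes, An. merus minus An. coluzzii, was -0.60 ± 0.14 (SE; adjusted p = 0.00093, limma). Against 0%, the log2 difference in An. merus was -1.18 ± 0.31 at 40% (SE; adjusted p = 0.0035, limma) and -2.86 ± 0.31 at 50% (SE; adjusted p = 5.0e-09, limma). The 40% call was lost without replicate A at 0% (-0.83, limma adjusted p = 0.056). At 30% the value was -0.85 ± 0.31 (SE; adjusted p = 0.052, limma), and it ranged from -1.21 without replicate C at 0% (limma adjusted p = 0.0064) to -0.50 without replicate A at 0% (limma adjusted p = 0.41). Blocking on the replicate letter gave an adjusted p of 0.031 at 30% (limma).

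In An. coluzzii AGAP002799 was higher at 40% than at 0% by 0.79 ± 0.31 (SE; adjusted p = 0.027, limma) and lower at 50% than at 0%, with a log2 difference of -1.20 ± 0.31 (SE; adjusted p = 0.0012, limma). The higher level at 40% is uncertain, since with library totals as the scaling it was 0.49 (limma adjusted p = 0.15), with quantile normalization 0.71 (limma adjusted p = 0.054), and without replicate D at 0%, replicate B at 40% or replicate D at 40% it was 0.55, 0.65 and 0.79 (limma adjusted p = 0.16, 0.105 and 0.055). The step from 40 to 50% was -1.68 ± 0.31 in An. merus (SE; adjusted p = 7.5e-05, limma) and -1.997 ± 0.31 in An. coluzzii (SE; adjusted p = 8.7e-06, limma). With AGAP002798 left out, that step was called for 2 of 4 members in An. merus (44.8% of all genes) and 3 of 4 in An. coluzzii (43.3%).

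AGAP002796 had its lowest levels at the upper end of the range. In An. merus it measured 1284, 856 and 574 CPM at 0%, 1154, 1011 and 819.6 CPM at 10%, 976, 932 and 904 CPM at 20%, 949, 846 and 672 CPM at 30%, 686, 718 and 456 CPM at 40%, and 338, 383 and 328 CPM at 50%. In An. coluzzii it was at 406, 382 and 289 CPM at 0%, 378, 393 and 387 CPM at 10%, 370.2, 298 and 332 CPM at 20%, 266, 220.1 and 317 CPM at 30%, 253, 217 and 226 CPM at 40%, and 132, 60.6 and 95.4 CPM at 50%. In each species the 50% libraries lay below all others and every other pair of groups next to each other in level overlapped.

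From 40 to 50% the log2 step of AGAP002796 was -0.80 ± 0.23 in An. merus (SE; adjusted p = 0.0059, limma) and -1.34 ± 0.23 in An. coluzzii (SE; adjusted p = 3.5e-05, limma). At 50% against 0% its log2 difference was -1.30 ± 0.23 in An. merus (SE; adjusted p = 1.5e-05, limma) and -1.95 ± 0.23 in An. coluzzii (SE; adjusted p = 2.6e-08, limma). Its slopes over 10 to 40% were -0.23 ± 0.07 in An. merus and -0.25 ± 0.07 in An. coluzzii (SE; adjusted p = 0.025 and 0.0034, limma), and their difference of 0.02 ± 0.10 (SE; adjusted p = 0.87, limma) was smaller than its error. The An. merus slope lost its call without replicate A or B at 10% or C at 40% (limma adjusted p = 0.107, 0.059 and 0.16). At 40% against 0% AGAP002796 was lower in An. coluzzii, with a log2 difference of -0.62 ± 0.23 (SE; adjusted p = 0.021, limma), a call lost without replicate A or B at 0% or C at 40% (limma adjusted p = 0.083, 0.062 and 0.062). In An. merus the 40% value was -0.50 ± 0.23 (SE; adjusted p = 0.087, limma), and it ranged from -0.79 without replicate C at 0% (limma adjusted p = 0.0076) to -0.21 without replicate A at 0% (limma adjusted p = 0.57). Without replicate C at 40% it was -0.29 (limma adjusted p = 0.40).

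AGAP004455 rose with salinity in An. merus. It measured 39.9, 27.5 and 34.7 CPM at 0%, 44.5, 33.7 and 39.0 CPM at 10%, 45.7, 57.3 and 49.4 CPM at 20%, 77.0, 58.1 and 56.2 CPM at 30%, 67.0, 104 and 69.1 CPM at 40%, and 78.3, 64.7 and 66.3 CPM at 50% in that species. Every library from 20% upward was above every library at 0 and 10%. Against 0% the log2 difference in An. merus was 0.90 ± 0.24 at 30%, 1.21 ± 0.24 at 40% and 1.04 ± 0.24 at 50% (SE; adjusted p = 0.0105, 0.00027 and 0.00047, limma), the first lost without replicate A at 30% (limma adjusted p = 0.066). Its slope over 10 to 40% was 0.33 ± 0.08 per 10% (SE; adjusted p = 0.0024, limma).

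In An. coluzzii AGAP004455 was at 15.8, 15.6 and 40.0 CPM at 0% (replicates A, B and D), 15.1, 19.3 and 25.0 CPM at 10%, 20.5, 31.0 and 26.6 CPM at 20%, 18.6, 22.1 and 25.7 CPM at 30%, 20.6, 17.2 and 16.5 CPM at 40%, and 13.2, 12.05 and 12.3 CPM at 50%. Replicate D at 0% stood above every other library of that species, and the 50% libraries stood below every other. The slope over 10 to 40% was -0.05 ± 0.08 (SE; adjusted p = 0.56, limma) and the difference in slope, An. merus minus An. coluzzii, was 0.39 ± 0.11 (SE; adjusted p = 0.0049, limma). At 50% against 0% the gene was lower, with a log2 difference of -0.75 ± 0.24 (SE; adjusted p = 0.0079, limma), and without replicate D at 0% the value was -0.31 (limma adjusted p = 0.18). At 20% against 0% it was 0.25 (limma adjusted p = 0.55), but 0.69 without that replicate (limma adjusted p = 0.0175). At 40% it was -0.25 (limma adjusted p = 0.38), but -0.54 with library totals as the scaling (limma adjusted p = 0.034).

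AGAP012409 was higher at high salinity in each species, at low levels of 0.696 to 7.55 CPM and from few reads, 6 to 119 per library. In An. merus it measured 0.696, 0.935 and 0.868 CPM at 0%, 1.57, 1.16 and 1.42 CPM at 10%, 1.71, 0.942 and 1.27 CPM at 20%, 1.42, 1.37 and 2.25 CPM at 30%, 2.59, 3.09 and 2.66 CPM at 40%, and 3.89, 2.30 and 2.77 CPM at 50%. All 6 libraries at 40 and 50% were above all others of the species. In An. coluzzii it was at 1.09, 0.848 and 1.02 CPM at 0%, 1.12, 0.717 and 0.833 CPM at 10%, 1.62, 1.31 and 1.64 CPM at 20%, 2.85, 3.57 and 2.92 CPM at 30%, 2.56, 3.71 and 3.74 CPM at 40%, and 6.06, 7.55 and 6.07 CPM at 50%. These values formed separate levels, at 0 and 10%, at 20%, at 30 and 40%, and at 50%, which did not overlap.

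At 50% against 0%, AGAP012409 rose in each species, with a log2 difference of 1.37 ± 0.18 in An. merus and of 2.25 ± 0.18 in An. coluzzii (SE; adjusted p = 1.5e-07 and 1.6e-11, limma). The 0.5 CPM added to each value understates such changes, and the ratio of mean CPM was 3.58 for An. merus and 6.65 for An. coluzzii. With a pseudocount of 2 the differences of this gene from 0% were 0.37, 0.75 and 0.80 at 30, 40 and 50% in An. merus and 0.77, 0.83 and 1.52 in An. coluzzii, and all were called. At 30% against 0% the log2 difference was 0.69 ± 0.18 in An. merus (SE; adjusted p = 0.0077, limma), lost without replicate A at 0% (limma adjusted p = 0.057) or C at 30% (limma adjusted p = 0.071), and 1.28 ± 0.18 in An. coluzzii (SE; adjusted p = 1.3e-06, limma). Its slopes over 10 to 40% were 0.27 ± 0.06 in An. merus and 0.52 ± 0.06 in An. coluzzii (SE; adjusted p = 0.0010 and 5.7e-09, limma). Their difference was -0.25 ± 0.08 (SE; adjusted p = 0.011, limma), and with library totals as the scaling it was -0.17 (limma adjusted p = 0.103).

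**Figure D2:**
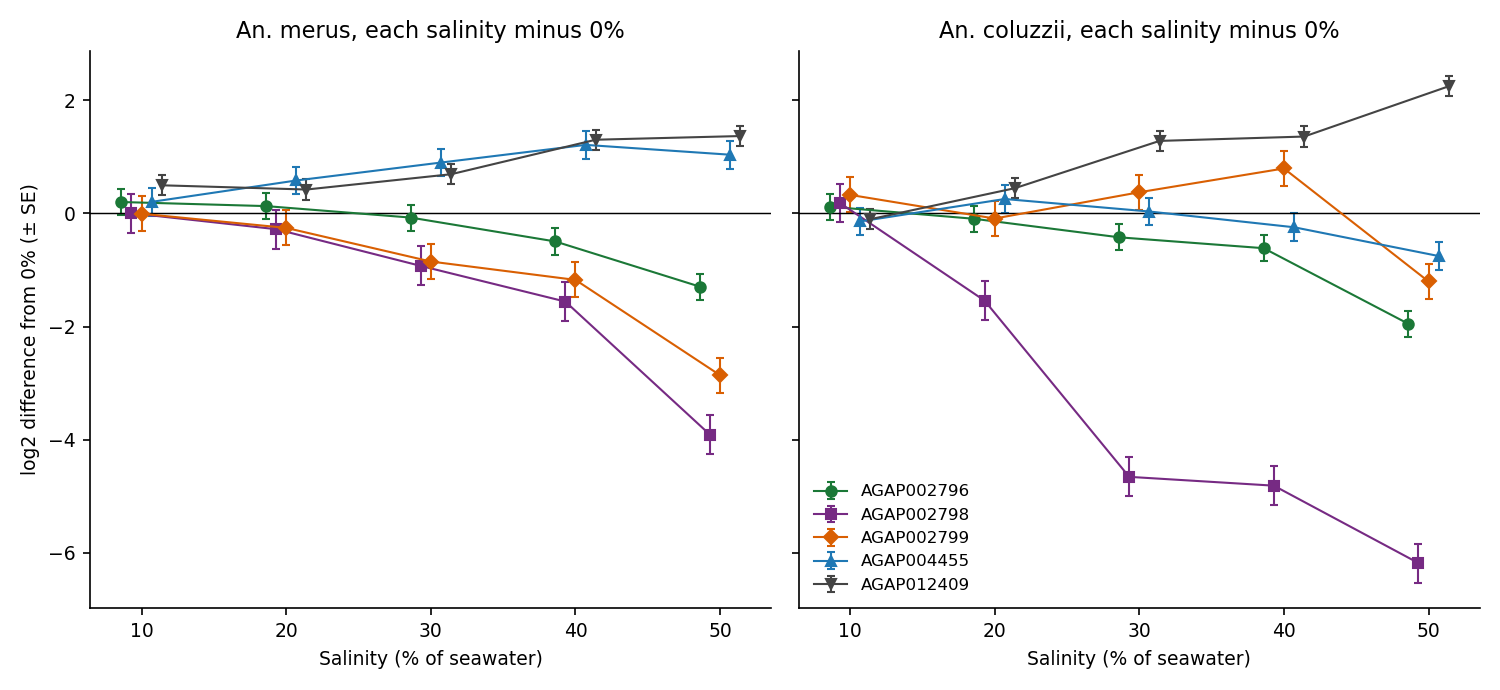
Log2 difference from 0% (± SE from limma, 3 libraries per group) of the 5 members at each salinity (% of seawater), in An. merus (left) and An. coluzzii (right). At 30% AGAP002798 stands at -0.93 for An. merus and -4.66 for An. coluzzii, and at 50% AGAP004455 stands at 1.04 for An. merus and -0.75 for An. coluzzii.

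Counted over the family, calls against 0% accumulated with salinity in each species as they did over all genes. The counts at 10 to 40% include AGAP002798 where it passed the threshold, which adds no independent support. In An. merus 2 of 5 members were called at 30% (19.4% of all genes), or 4 with a block for the replicate letter, and 4 of 5 at 40% (39.3%), and at 50% all 4 members tested were called (69.6%), 2 higher and 2 lower (31.9% and 37.7% of all genes). In An. coluzzii 1 of 5 members was called at 20% (15.3% of all genes), 2 at 30% (50.2%) and 4 at 40% (65.6%), and at 50% all 4 tested were called (68%), 1 higher and 3 lower (31.7% and 36.3%). With limma 0 members were called at 10% in either species, where 0.798% of all genes were called in An. merus and 0.055% in An. coluzzii, and 0 at 20% in An. merus (11.8%). At an unadjusted p under 0.05 these counts were 1 for An. merus at 10%, 0 for An. coluzzii at 10% and 2 for An. merus at 20%, and with edgeR and DESeq2 they were 0. At 40% the median log2 difference of the members was -0.50 in An. merus, against -0.02 for all genes, and -0.25 in An. coluzzii, against -0.04 for all genes. Each of these medians is the value of a single member, AGAP002796 in An. merus and AGAP004455 in An. coluzzii, and neither was called. The members called at 40% went in both directions in each species, so the medians do not show a fall of the family.

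The species were compared directly at each salinity, where a difference in how well reads of each species aligned cannot be told apart from one in expression. AGAP002796 averaged 905 ± 357 CPM at 0% in An. merus and 359 ± 61.9 CPM at 0% in An. coluzzii (SD over 3 libraries), a log2 difference of 1.27 ± 0.23 (SE; adjusted p = 5.4e-05, limma). AGAP002798 was also higher in An. merus at 0%, by 1.67 ± 0.34 (SE), given without a p-value because it was selected on those libraries among others. AGAP002799 averaged 41.8 ± 20.0 CPM for An. merus and 37.2 ± 11.6 CPM for An. coluzzii at 0% (SD over 3 libraries) and its difference of 0.10 ± 0.31 was not called (SE; adjusted p = 0.81, limma). AGAP012409 was at 0.833 ± 0.123 CPM for An. merus and 0.986 ± 0.124 CPM for An. coluzzii at 0% (SD over 3 libraries; log2 difference -0.16 ± 0.18 SE, limma adjusted p = 0.50).

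AGAP004455 differed at 0% by 0.64 ± 0.24 (SE; adjusted p = 0.035, limma), with overlapping groups. That call was lost with edgeR (0.51, adjusted p = 0.103) and DESeq2 (0.49, adjusted p = 0.105), and without An. merus replicate A or C or An. coluzzii replicate A or B (0.52, 0.62, 0.42 and 0.41; limma adjusted p = 0.15, 0.071, 0.197 and 0.22). Without An. coluzzii replicate D the difference was 1.08 (limma adjusted p = 0.00013).

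For each member the log2 difference between the species was larger in size at 50% than at 0%. The share of all genes called for a species difference also rose, from 43.5% at 0% to 68.2% at 50%. Whether the response itself differed at 50% is tested further on, except for AGAP002798, which was selected on both salinities. At 50% AGAP004455 averaged 69.8 ± 7.48 CPM for An. merus and 12.5 ± 0.628 CPM for An. coluzzii (SD over 3 libraries), a log2 difference of 2.43 ± 0.24 (SE; adjusted p = 8.4e-10, limma). For AGAP002798 the difference was 2.94 ± 0.34 at 20%, 5.40 ± 0.34 at 30% and 4.93 ± 0.34 at 40% (SE; adjusted p = 5.0e-08, 1.4e-13 and 6.3e-13, limma). AGAP002799 was lower in An. merus from 30% on, with log2 differences of -1.12 ± 0.31 at 30%, -1.87 ± 0.31 at 40% and -1.56 ± 0.31 at 50% (SE; adjusted p = 0.0029, 6.1e-06 and 6.8e-05, limma). AGAP012409 was lower in An. merus at 30% and 50%, with log2 differences of -0.75 ± 0.18 and -1.04 ± 0.18 (SE; adjusted p = 0.0008 and 1.0e-05, limma), and at 40% the value was -0.21 ± 0.18 (SE; adjusted p = 0.295, limma). At 10% its value had the other sign, 0.44 ± 0.18 (SE; adjusted p = 0.055, limma). That value was called with a pseudocount of 0.1 (limma adjusted p = 0.036) or quantile normalization (limma adjusted p = 0.0046). With a pseudocount of 2 it was not called (limma adjusted p = 0.117). AGAP002796 was higher in An. merus at all 6 salinities, with log2 differences from 1.27 at 0% to 1.93 at 50%. The number of members called was 3 of 5 at 0, 10 and 20%, where 43.5, 36.7 and 42.9% of all genes were called, 5 at 30% (57.5%) and 4 at 40% (67.3%). The count at 0% includes AGAP002798, which adds no independent support there. At 50%, where AGAP002798 is left out of the count as selected on those libraries, the 4 other members were called (68.2%).

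**Figure D3:**
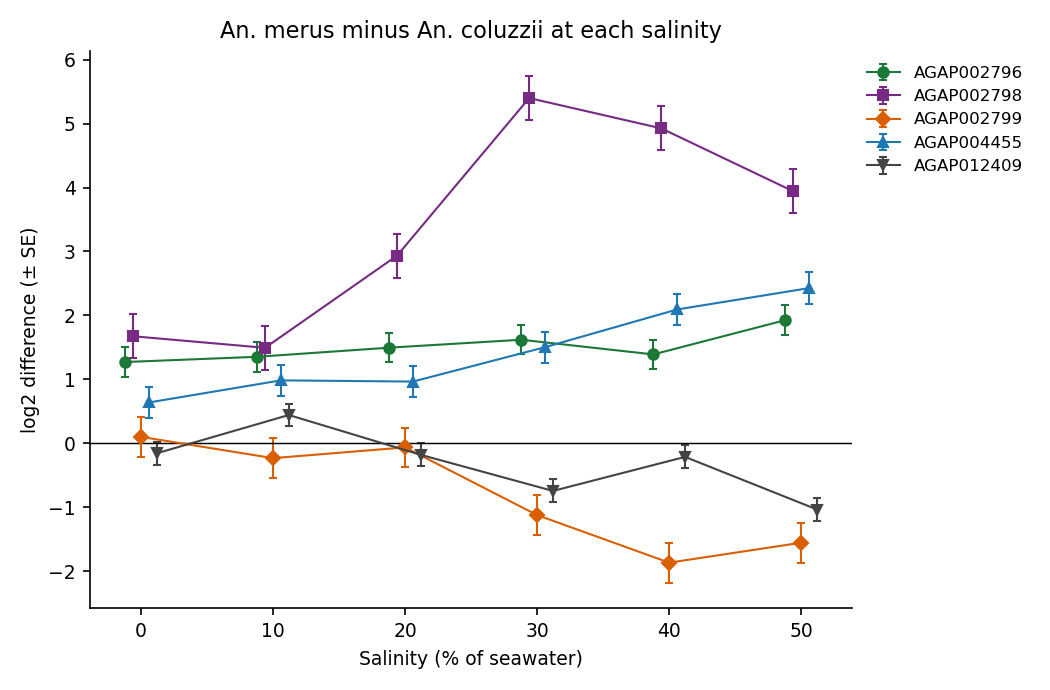
Log2 difference between An. merus and An. coluzzii (An. merus minus An. coluzzii, ± SE from limma, 3 libraries per group) of the 5 members at each salinity (% of seawater). AGAP002798 stands at 5.40 at 30% and AGAP002799 at -1.87 at 40%, on opposite sides of the line of no difference.

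The responses themselves were then set against each other, as the difference from 0% in An. merus minus that in An. coluzzii. For AGAP002798, whose 0% libraries entered its selection, the difference was 3.73 ± 0.49 at 30% and 3.25 ± 0.49 at 40% on the log2 scale (SE), given without a p-value. AGAP002799 differed in the other direction, by -1.97 ± 0.44 at 40% and -1.66 ± 0.44 at 50% (SE; adjusted p = 0.00067 and 0.0022, limma), while its value of -1.22 ± 0.44 at 30% (SE; adjusted p = 0.0495, limma) lost its call under several settings. AGAP004455 had 0.87 ± 0.35 at 30% (SE; adjusted p = 0.078, limma), which was called with edgeR (1.02, adjusted p = 0.046), DESeq2 (1.04, adjusted p = 0.022) and library totals as the scaling (1.06, limma adjusted p = 0.017), and was 0.42 without replicate D of An. coluzzii at 0% (limma adjusted p = 0.297). It differed by 1.46 ± 0.35 at 40% and 1.79 ± 0.35 at 50% (SE; adjusted p = 0.0012 and 8.0e-05, limma). AGAP012409, higher with salinity in each species, had a response smaller in An. merus at 50%, by -0.88 ± 0.25 (SE; adjusted p = 0.0046, limma; DESeq2 adjusted p = 0.059), and at 40% the difference was -0.06 ± 0.25 (SE; adjusted p = 0.88, limma). For AGAP002796 it was 0.12 ± 0.33 at 40% (SE; adjusted p = 0.795, limma) and was not called at any salinity. Of the members, 2 of 5 were called at 30% (18.9% of all genes; 3 with edgeR and 3 with DESeq2), 3 of 5 at 40% (44.2%) and 3 of 4 at 50% (54.9%). The counts at 30 and 40% include AGAP002798, which adds no independent support. At 10 and 20% limma, edgeR and DESeq2 called 0 of 5, limma called 0.0642 and 0.55% of all genes, and 1 member at each had an unadjusted p under 0.05.

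AGAP002798 and AGAP002799 varied together in An. merus and parted in An. coluzzii. Within single libraries of An. merus the log2 ratio of AGAP002798 to AGAP002799 averaged 3.47 ± 0.10 at 0%, 3.48 ± 0.05 at 10%, 3.45 ± 0.15 at 20%, 3.41 ± 0.26 at 30%, 3.11 ± 0.38 at 40% and 2.52 ± 0.29 at 50% (SD over 3 libraries). In An. coluzzii it averaged 1.89 ± 0.36 at 0%, 1.75 ± 0.15 at 10%, 0.43 ± 0.18 at 20%, -3.28 ± 0.03 at 30%, -3.87 ± 0.43 at 40% and -3.59 ± 0.76 at 50% (SD over 3 libraries). The 3 An. coluzzii libraries at 30% gave -3.30, -3.24 and -3.28, and no library at 30% or above overlapped one at 20% or below. CPM is not corrected for gene length, so the ratio shows a change between libraries and not which gene had more transcripts. The identifiers of AGAP002796, AGAP002798 and AGAP002799 lie close together in number. Their coordinates and sequences were not used here, and whether reads were divided between similar copies was not tested.

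**Figure D4:**
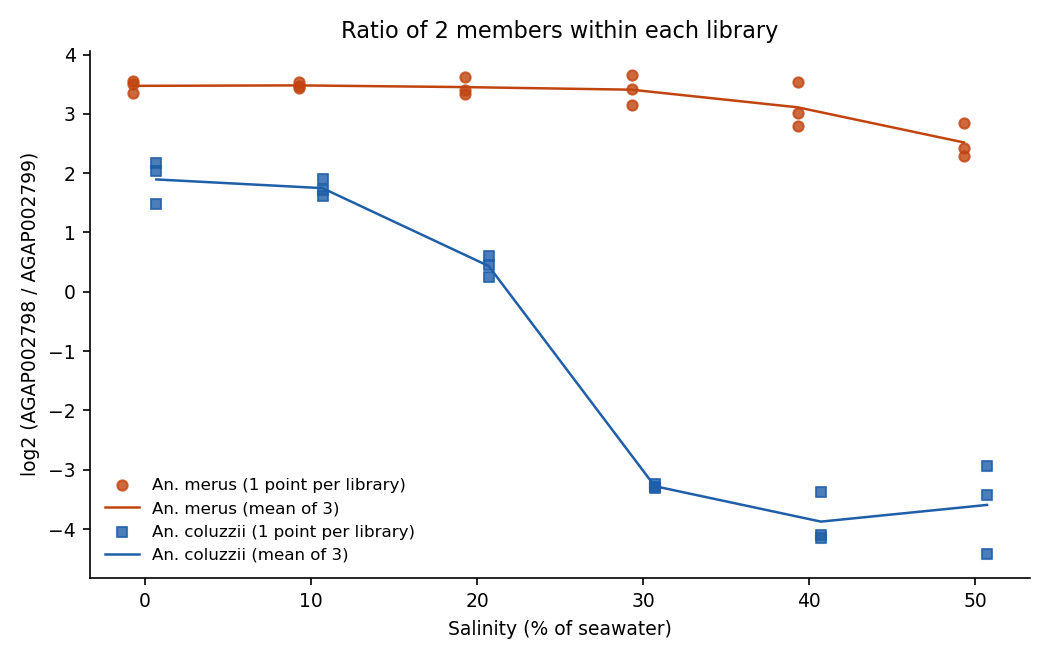
Log2 ratio of AGAP002798 to AGAP002799 CPM within each library against salinity (% of seawater), with 1 point per library and a line through the mean of 3, for An. merus (circles) and An. coluzzii (squares). The ratio stays between 2.30 and 3.66 in An. merus and lies between 1.48 and 2.17 at 0% and between -4.15 and -3.38 at 40% in An. coluzzii.

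Correlations of log2 values describe the same grouping, with libraries, scaling and salinity series shared by all points. Over the 18 An. merus libraries Pearson's r was 0.98 between AGAP002798 and AGAP002799, 0.94 between AGAP002796 and AGAP002799 and 0.92 between AGAP002796 and AGAP002798. Over the 18 An. coluzzii libraries the same pairs had r of 0.31, 0.72 and 0.83. AGAP012409 ran against AGAP002798, with r of -0.78 in An. merus and -0.96 in An. coluzzii. AGAP004455 and AGAP012409 had r of 0.76 in An. merus and -0.52 in An. coluzzii. The replicates of a group also deviated together. With each group's mean subtracted, r over the 36 libraries was 0.81 between AGAP002798 and AGAP002799, 0.83 between AGAP002796 and AGAP002799 and 0.71 between AGAP002796 and AGAP002798. In the An. merus 0% pools, for example, replicate A was highest and C lowest for all 3 genes. The other 7 pairs of members had r of -0.41 to 0.02 after that subtraction.

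The genes of the table whose pattern was most like each member were found by Pearson's r over the 36 libraries with each species' mean subtracted, among genes with a mean of at least 5 CPM. None of the first 2 for any member was another member, although AGAP012409 fell below that mean and could not be listed. Of the first-ranked genes, the 4 with the highest r were AGAP002795 for AGAP002796 (r = 0.96), AGAP010132 for AGAP002798 (0.956), AGAP009075 for AGAP012409 (0.925) and AGAP028207 for AGAP002799 (0.85). With Spearman's rho the first gene was still AGAP002795 for AGAP002796, but another gene for AGAP002798, AGAP002799 and AGAP012409, and AGAP028207 was not among the first 2 for AGAP002799. With a pseudocount of 2 another gene came first for AGAP002798. The r values of AGAP002798 here also include the 0 and 50% libraries it was selected on. AGAP002795, whose identifier directly precedes that of AGAP002796, averaged 30.9 ± 0.728 CPM at 50% against 69.1 ± 22.4 CPM at 0% for An. merus, and 12.9 ± 2.62 CPM at 50% against 27.6 ± 3.74 CPM at 0% for An. coluzzii (SD over 3 libraries). Whether reads of these neighbours in number overlap was not tested. AGAP028207, untested here, had means of 252 ± 53.5, 84.2 ± 19.3 and 59.1 ± 4.59 CPM at 0, 40 and 50% for An. merus. For An. coluzzii its means were 116 ± 30.8, 144 ± 42.1 and 52.5 ± 13.6 CPM at those salinities (SD over 3 libraries).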

How the data were processed

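Poly(A) RNA of 36 pools of whole larvae was sequenced (TruSeq, per the labels). The submitters' processing notes name Trimmomatic, Bowtie2, TopHat2, HTSeq and edgeR, without versions. Not given in the sources used here are the build, the annotation and the strand setting. The authors deposited an expression signal for each gene and library, CPM with TMM factors, and the file's name adds that genes were filtered and rRNA left out. Since TMM moves column sums off a common total, the test planned for CPM was kept for this signal. All values (100%) were multiples of 1 read within 0.001, and the multiples served as reads. Before TMM each gene reached 1 CPM in 3 or more libraries, and 5 of 5 members were present. An. coluzzii replicate C at 50% has a column named after 1 of 5 lane parts.

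A single limma model (version 3.58.1, R 4.3.3) with a mean for each of 12 groups was fitted to log2(CPM + 0.5), two-sided, with empirical Bayes and a mean trend, over 10905 genes. Its procedure was also run on simulated reads that gave every gene the same dispersion and changed few genes. Those settings are simpler than these data, so that run does not test the calls given here. Alternatives were pseudocounts of 0.1 and 2, a filter at a mean of 5 CPM, scaling by library totals, quantile normalization, robust variances, a replicate block, DESeq2 1.42.0 and edgeR 4.0.16 on the reads, each species alone and leaving out each library. The members and lists were chosen with earlier results of these data known. Named genes were all members and, for each, the 2 most like genes, of which 4 were printed. Of 16199 genes in the reference table, 0 matched the identifiers, so lists of prophenoloxidase, Toll and other immune genes were not used, the tissue was not checked by markers, and no sequences are shown. Figures were drawn with matplotlib 3.10.9.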

Additional observations from a re-analysis of the deposited data

Results flagged for a closer look

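In 12 comparisons of members the difference between the species in the response to salinity passed the threshold (An. merus minus An. coluzzii, limma on log2 values). Those of AGAP002798 at 30 and 40% are among the 12 and add no independent support. For AGAP002798 the difference was 3.73 ± 0.49 at 30% and 3.25 ± 0.49 at 40% (SE), which share the 0% libraries it was selected on, and 1.28 per 10% in slope, which does not. For AGAP002799 it was -1.22 ± 0.44 at 30%, -1.97 ± 0.44 at 40% and -1.66 ± 0.44 at 50% (SE; adjusted p = 0.0495, 0.00067 and 0.0022, limma), and -0.60 per 10% in slope. The first of these was lost under many settings, given in the next section. For AGAP004455 it was 1.46 ± 0.35 at 40% and 1.79 ± 0.35 at 50% (SE; adjusted p = 0.0012 and 8.0e-05, limma), and 0.39 per 10% in slope. For AGAP012409 it was -0.88 ± 0.25 at 50% (SE; adjusted p = 0.0046, limma; DESeq2 adjusted p = 0.059), and -0.25 per 10% in slope. AGAP002796 passed the threshold in none of the 6 comparisons, and its difference in response at 50% was 0.66 ± 0.33 (SE; adjusted p = 0.089, limma), which was called with library totals as the scaling (0.82, limma adjusted p = 0.0203) and without replicate A of An. merus at 0%, replicate A of An. coluzzii at 50% or replicate D of An. coluzzii at 0% (0.95, 0.92 and 0.80; limma adjusted p = 0.012, 0.017 and 0.050). With replicate B of An. coluzzii at 50% or replicate C of An. merus at 0% left out it was smaller (0.36 and 0.37; limma adjusted p = 0.34 and 0.33). Of the members, 2 of 5 were called at 30%, 3 of 5 at 40% and 3 of 4 at 50%, where 18.9, 44.2 and 54.9% of all genes were called. AGAP002798 is in the counts at 30 and 40%. For the slope 4 of 5 members were called, and 46.1% of all genes.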

How the results depend on the processing

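No called difference of a member changed sign under any alternative tried. Of the repeats of called differences, 661 with another setting stayed called and 10 did not, and 570 with 1 library left out stayed called and 30 did not. All counts of this section include AGAP002798 where it passed the threshold, and where they use 0% libraries it adds no independent support. The number of members called in An. merus at 30% was 2, but 4 with a pseudocount of 2, a replicate block, edgeR or DESeq2, and 1 to 4 with 1 library left out. At 40 minus 30% in An. merus it was 1 in place of 0 with quantile normalization, and 0 to 1 with 1 library left out. In An. coluzzii at 20% it was 2 in place of 1 with quantile normalization, and 0 to 2 with 1 library left out. From 10 to 20% in An. coluzzii it was 0 to 1 with 1 library left out. With the filter at a mean of 5 CPM, which removes AGAP012409, it was 1 in place of 2 in An. coluzzii at 30% and from 20 to 30%. For the difference in response at 30% it was 1 in place of 2 with a pseudocount of 0.1 or robust variances, 3 with edgeR or DESeq2, and 1 to 3 with 1 library left out. There AGAP002799 was -1.24 with a pseudocount of 0.1 (limma adjusted p = 0.052), -1.03 with library totals, -1.18 with quantile normalization, and lost its call in 8 of 12 fits that left out a library. Where a call was lost or gained, the cause was not tested beyond the members or libraries removed.

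The replicate letters did not pair the samples in all groups, although in An. merus at 10 and 30% all 3 same-letter pairs did correlate above 0.1. Same-letter deviations from 0% correlated above 0.1 in 14 of 25 pairs (range -0.58 to 0.64). Of the An. merus libraries, 8 of 15 correlated best with the 0% library of their own letter. These were 3 of 3 at 10%, 2 of 3 at 20% and 3 of 3 at 30%, with 0 of 3 at 40% and at 50%. The replicate block changed the call of 1 slope, that of AGAP002799 in An. coluzzii (0.25, limma adjusted p = 0.024), and called AGAP002798 and AGAP002799 in An. merus at 30%. The call of AGAP002798 uses the 0% libraries it was selected on and adds no independent support. Without An. coluzzii replicate C at 50%, all members called at 50% against 0% in that species stayed called. At 6 to 22 reads, the AGAP012409 values at 0% limit the precision of its changes.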
